A study of Mus musculus with 63 samples.

Results

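The stress response of the 6-month ovary was compared between 8 and 12 weeks of chronic unpredictable mild stress (CUMS), a protocol in which mice receive a changing series of mild stressors. For each gene the difference between stressed and control ovaries after 8 weeks was subtracted from the same difference after 12 weeks. This value is called the duration difference here. It is on the log2 scale, and a value above 0 means that the level in stressed ovaries relative to their own controls was higher after 12 weeks than after 8. The comparison used 15 of the 31 ovary libraries, and the study holds 63 libraries in all, from ovary and pituitary. All groups came from C57BL/6 mice labelled 6M, for 6 months of age. There were 4 control (Ctrl) and 4 CUMS ovaries in the 8-week groups (6M-8W), and 3 control and 4 CUMS ovaries in the 12-week groups (6M-12W). No genetic change or drug is named for any group. The sources used here do not say at which point of the stress the age was taken, nor the oestrous stage, the hour of collection or the order of extraction. The series' design text pairs each age with 1 duration, while the sample titles give both durations at both ages, and the titles were followed. The labels do not say that replicates came from separate animals, so p-values measure the spread between these libraries, which may be technical. Groups have n = 4, 4, 3 and 4 in the order given, and this n holds for every level below.

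An ovary holds follicles, in which granulosa and theca cells surround an oocyte, and corpora lutea, which form from the follicle after ovulation and make progesterone. Growing follicles respond to the pituitary hormones FSH and LH, while the corpus luteum of the mouse is kept by prolactin and taken down by prostaglandin F2 alpha and by enzymes that break down progesterone. Luteal cells carry out cholesterol uptake and steroid synthesis at a high rate, and their number changes with the oestrous cycle.

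The ovary label was checked against markers. All 28 oocyte, 17 granulosa, 7 theca and 12 luteal genes of the lists had counts in each of the 4 groups. The 6M ovary libraries held 14700068 to 28777668 counts in genes, which limits the precision of genes with few counts. Along the first principal component, with 26.5% of the variance, the 4 libraries of 12-week CUMS lay at 37.2 to 51.6 and the other 11 at -32.2 to 7.92. Counts from mitochondrial genes made up 4.34% to 4.56% in 12-week CUMS and 5.20% to 6.27% in 12-week controls, with no overlap, and 4.44% to 6.59% in the 8-week libraries. The summed level of 7 pituitary hormone genes was low in all 15 libraries, at 38.4 to 48.8 CPM in 12-week controls, 79.1 to 116 CPM in 12-week CUMS and 67.2 to 114 CPM in the 8-week groups. CPM is a gene's count relative to all counts in genes of its library, on the usual CPM scale and with TMM scaling factors. Their part in the results was not tested.

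The effect of stress on the 6M ovary differed by duration. After 12 weeks 4 of 12 luteal genes were called lower in stressed ovaries, and 12 of 28 oocyte and 8 of 30 cell cycle genes higher. After 8 weeks none of the luteal or oocyte genes was called, 1 cell cycle gene was lower, and 9 of 20 interferon genes were higher. Of 17766 genes tested with edgeR's quasi-likelihood test, 1552 (8.74%) had a duration difference at a Benjamini-Hochberg adjusted p under 0.05. Of these, 722 (4.06%) were higher and 830 (4.67%) lower. These shares are the background for every count of list members in the duration difference below. After 12 weeks 2032 genes (11.4%) differed between stressed and control ovaries, 920 higher (5.18%) and 1112 lower (6.26%), against 199 genes (1.12%) after 8 weeks, 99 higher and 100 lower. The difference did not lie in the stressed ovaries alone: 848 genes (4.77%) differed between the 12-week and the 8-week controls, 291 higher (1.64%) and 557 lower (3.14%) after 12 weeks, and 4150 (23.4%) between the 2 groups of stressed ovaries. Across all genes tested the stress effects at 8 and 12 weeks, which share no library, had a Pearson r of -0.04 and a Spearman rho of -0.09. The median size of the stress effect was 0.217 after 12 weeks and 0.155 after 8 (log2, sign left out).

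The number of genes called depended on single libraries. Without 12-week control 2 the duration difference counted 561 genes, and without 12-week control 1 it counted 654. It counted 796 without 8-week CUMS 3, 868 and 903 without 8-week control 2 and 1, and 953, 1006 and 1021 without 12-week CUMS 3, 1 and 4. The 12-week stress effect fell to 550 and 844 genes without 12-week control 2 and 1, and to 1291 and 1150 without 12-week CUMS 1 and 4. The count for the 8-week stress effect was the least stable. It was 4, 33 and 12 without 8-week control 1, 2 and 4, 21 and 6 without 8-week CUMS 3 and 4, and 336 without 8-week control 3. The control comparison counted 219, 507, 506 and 411 genes without 12-week control 1 and 8-week controls 1, 2 and 4.

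**Figure D1:**
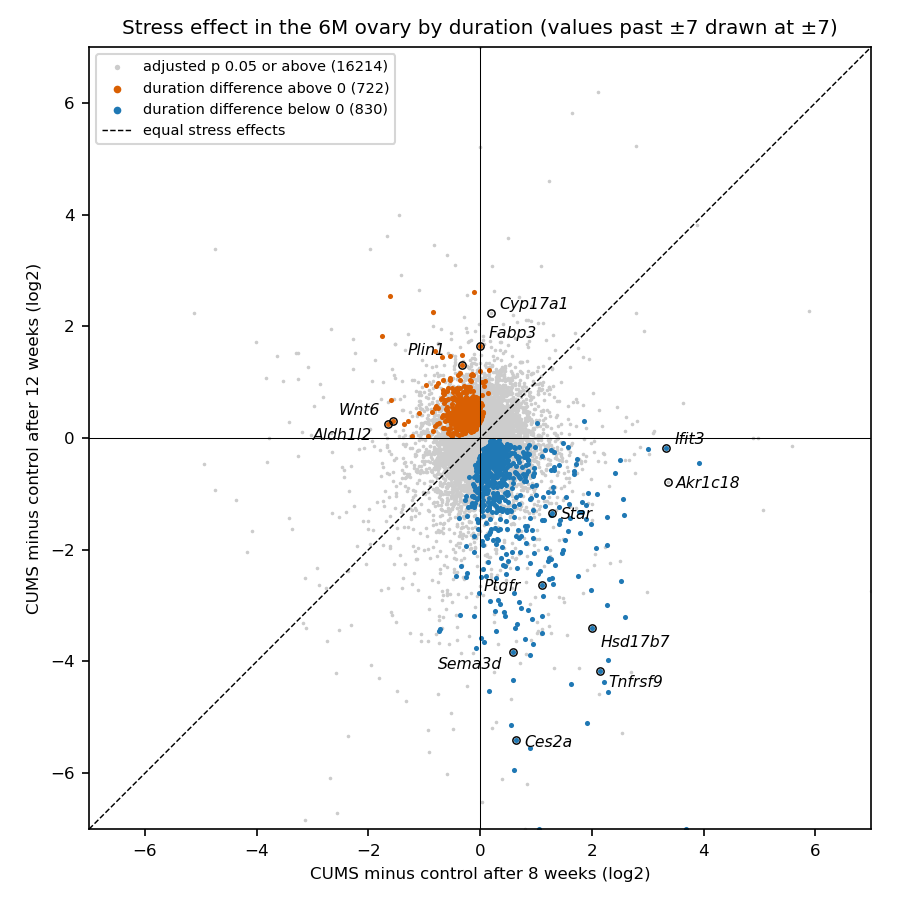
Each point is 1 of 17766 genes, with the log2 stress effect after 8 weeks on the horizontal axis and after 12 weeks on the vertical axis. Orange and blue points are the 722 and 830 genes whose duration difference was above or below 0 at an adjusted p under 0.05 (edgeR), grey points are the rest, circles mark named genes, and the dashed line marks equal effects. The blue points lie mostly below 0 on the vertical axis, that is, at a lower level in stressed than in control ovaries after 12 weeks.

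A small set of genes was called at both durations. It held 37 genes, of which 20 had opposite signs and 17 the same sign. All 20 opposite genes were also called in the duration difference. This follows from how they were chosen, since effects of opposite sign add up in that difference. Lower after 12 weeks and higher after 8 were 12 of them, and the other 8 were the reverse. Predicted genes, such as those with Gm or Rik names, were left out when genes were named by p. Among the rest of the 20, the smallest p were those of Gins2, Timp3, Calcrl, Med25, Slc39a10 and Gnaq.

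Gins2, a subunit of the replicative helicase that unwinds DNA, gave the smallest p. Its level was 13.0, 14.6, 11.3 and 13.2 CPM in 8-week controls and 9.42, 10.6, 9.59 and 10.5 CPM in 8-week CUMS. It was 10.1, 9.95 and 10.6 CPM in 12-week controls and 16.7, 15.1, 16 and 15.8 CPM in 12-week CUMS. All stressed libraries lay below all controls after 8 weeks and above all controls after 12 weeks. The duration difference was 1.02 ± 0.14 (log2, SE; adjusted p = 0.00124, edgeR), and it passed the threshold in all 20 alternatives, between 0.96 and 1.06. Timp3, an inhibitor of matrix metalloproteinases, moved the other way. Its level was 320, 301, 393 and 321 CPM in 8-week controls, 385, 471, 539 and 460 CPM in 8-week CUMS, 520, 486 and 385 CPM in 12-week controls, and 286, 319, 278 and 307 CPM in 12-week CUMS. The groups were apart after 12 weeks and overlapped after 8, where the lowest stressed library was below the highest control. Its duration difference was -1.12 ± 0.17 (adjusted p = 0.00174, edgeR). Calcrl, the receptor of adrenomedullin, had a duration difference of -0.90 ± 0.14, and its groups did not overlap at either duration. The share of all genes whose groups did not overlap was 31.1% after 12 weeks and 10% after 8.

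Duration differences were 0.60 ± 0.09 for Med25, a Mediator subunit, -0.66 ± 0.11 for the zinc transporter Slc39a10, and -0.67 ± 0.12 for Gnaq, the G protein alpha subunit through which the prostaglandin F2 alpha receptor signals. These 6 genes passed in all 20 alternatives for the duration difference. Their 8-week calls held in fewer settings: of 13 alternatives run for that comparison, Gins2 passed in 4, Timp3 in 5, Calcrl in 6, Med25 in 3, and Slc39a10 and Gnaq in 7 each. Cish, an inhibitor of cytokine signalling that prolactin induces through STAT5, had the lowest duration difference of the 20, at -3.23 ± 0.58 (adjusted p = 0.0036, edgeR), and is named here after its values were seen. It was at 33.0, 39.1, 21.9 and 36.7 CPM in 8-week controls and at 72.1, 127, 148 and 41.7 CPM in 8-week CUMS. It was at 47.7, 73.8 and 72.4 CPM in 12-week controls and at 17.0, 20.2, 20.3 and 24.3 CPM in 12-week CUMS. Every stressed library was above every control after 8 weeks and below every control after 12. Among the 17 genes with the same sign, Cpxm2 fell by 2.36 after 8 weeks and by 2.38 after 12, and the clock gene Per2 rose by 1.24 and 0.88 (log2).

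Some genes of the corpus luteum were lower in stressed than in control ovaries after 12 weeks, and none of the luteal list was called lower after 8 weeks. Of 12 luteal genes 5 had a lower duration difference and none a higher one: Hsd17b7, Sfrp4, Ptgfr, Star and Prlr. Without 12-week control 2 the count was 1, without 8-week CUMS 3 it was 3, and it was 2 without any 1 of 12-week control 1, 12-week CUMS 1, 3 or 4, 8-week control 1, 2 or 4 or 8-week CUMS 1. The median over the 12 was -1.52, against 0.02 over all genes tested, and 11 of 12 values were below 0. After 12 weeks 4 luteal genes were called lower, and after 8 weeks none was called, with all 12 values above 0 and a median of 0.67. The summed luteal level was 6083 to 7244 CPM in 12-week CUMS, below every one of the other 11 libraries, which reached from 8578 to 19140 CPM. A lower median luteal sum in stressed ovaries was also seen at 2 months, at both durations. There it was 6650 CPM in 8-week CUMS and 12200 CPM in 8-week controls, and 5510 and 10700 CPM in the 12-week groups. The ranges of stressed and control libraries overlapped in both 2-month sets. In bulk RNA, fewer cells of a type and less RNA per cell cannot be told apart.

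The receptors of the luteal list came first by function. Prlr (chr15:10177238-10349180, GRCm38), the prolactin receptor, was at 476, 420, 589 and 579 CPM in 8-week controls and at 949, 754, 743 and 436 CPM in 8-week CUMS. It was at 697, 948 and 516 CPM in 12-week controls and at 285, 299, 253 and 311 CPM in 12-week CUMS. The 4 libraries of 12-week CUMS were the lowest of the 15, while 3 of 4 libraries of 8-week CUMS were above all their controls. The duration difference was -1.81 ± 0.39 (adjusted p = 0.0097, edgeR) and passed in all 20 alternatives, between -2.01 and -1.54. Ptgfr (chr3:151796502-151837630), the receptor through which prostaglandin F2 alpha acts on luteal cells, was at 181, 224.9, 364 and 258 CPM in 8-week controls and at 498, 416, 735 and 572 CPM in 8-week CUMS, without overlap. It was at 451, 895 and 283 CPM in 12-week controls and at 112, 147, 77.2 and 14.01 CPM in 12-week CUMS, again without overlap and in the other direction. Its duration difference was -3.75 ± 1.17 (adjusted p = 0.0442, edgeR), but only 7 of 20 alternatives passed, and among the left-out libraries only those without 12-week control 3, 12-week CUMS 2, 8-week control 3 or 8-week CUMS 2. Lhcgr, the LH receptor, had a value of -1.13 ± 0.54 that did not pass (adjusted p = 0.183).

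The steroid enzymes did not move as one group. Of 17 steroidogenic genes 2 were lower, 1 was higher and the median was 0.03. Hsd17b7 (chr1:169949535-169969241), an enzyme of luteal oestradiol and of cholesterol synthesis, had one of the lowest duration differences of all named genes, at -5.42 ± 1.40 (adjusted p = 0.02, edgeR). It was at 118, 245, 287 and 190 CPM in 8-week controls, 979, 1299, 943 and 160 CPM in 8-week CUMS, 487, 1041 and 244 CPM in 12-week controls, and 49.6, 49.98, 41.2 and 81.9 CPM in 12-week CUMS. Stressed ovaries were below every control after 12 weeks, and 3 of 4 were above every control after 8, with 8-week CUMS 4 among the controls. The call was lost without 12-week control 2, the library with the highest level among those controls (adjusted p = 0.0653). Star (chr8:25808474-25814723), which carries cholesterol into mitochondria, was at 331 to 962 CPM in 8-week controls and at 2366, 2978, 629 and 716 CPM in 8-week CUMS. It was at 581, 872 and 549 CPM in 12-week controls and at 262, 304, 263 and 231 CPM in 12-week CUMS. The groups were apart after 12 weeks only. Its duration difference of -2.62 ± 0.84 (adjusted p = 0.048, edgeR) passed in 5 of 20 alternatives, and of the single libraries only leaving out 8-week CUMS 3 or 4 kept it.

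Other steroid genes differed less or had a wide spread. Akr1c18, the enzyme that inactivates progesterone, had a duration difference of -4.14 ± 1.59 that did not pass (adjusted p = 0.0952), with levels from 2.17 to 259 CPM within 12-week CUMS and 154 to 1050 CPM within 8-week CUMS. The 4 stressed libraries were above every control after 8 weeks. Cyp11a1 and Hsd3b1, which carry out the first steps of steroid synthesis, had values of -0.40 ± 0.33 and 0.03 ± 0.19 (adjusted p = 0.471 and 0.951), and their groups overlapped at both durations. The only member that was higher was Nr5a1, the steroidogenic nuclear receptor, at 0.97 ± 0.27 (adjusted p = 0.0286). It was at 639 to 746 CPM in 12-week CUMS, above every one of the other 11 libraries, at 298 to 450 CPM. The call was lost without 12-week control 1 or 2, 12-week CUMS 1 or 4, 8-week control 3 or 8-week CUMS 3. Of 22 genes of cholesterol supply 3 were lower and none higher, with a median of -0.53. These were Cyp51 at -1.32 ± 0.39, of the last steps of cholesterol synthesis, the carrier Stard4 at -0.96 ± 0.26 and the lysosomal carrier Npc2 at -0.996 ± 0.28. The count of the list was 0 without 12-week control 1 or 2, 1 without 8-week control 2 or 8-week CUMS 1, and 5 without 8-week CUMS 4. None of the 22 was called after 8 weeks, where 18 values were above 0.

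**Figure D2:**
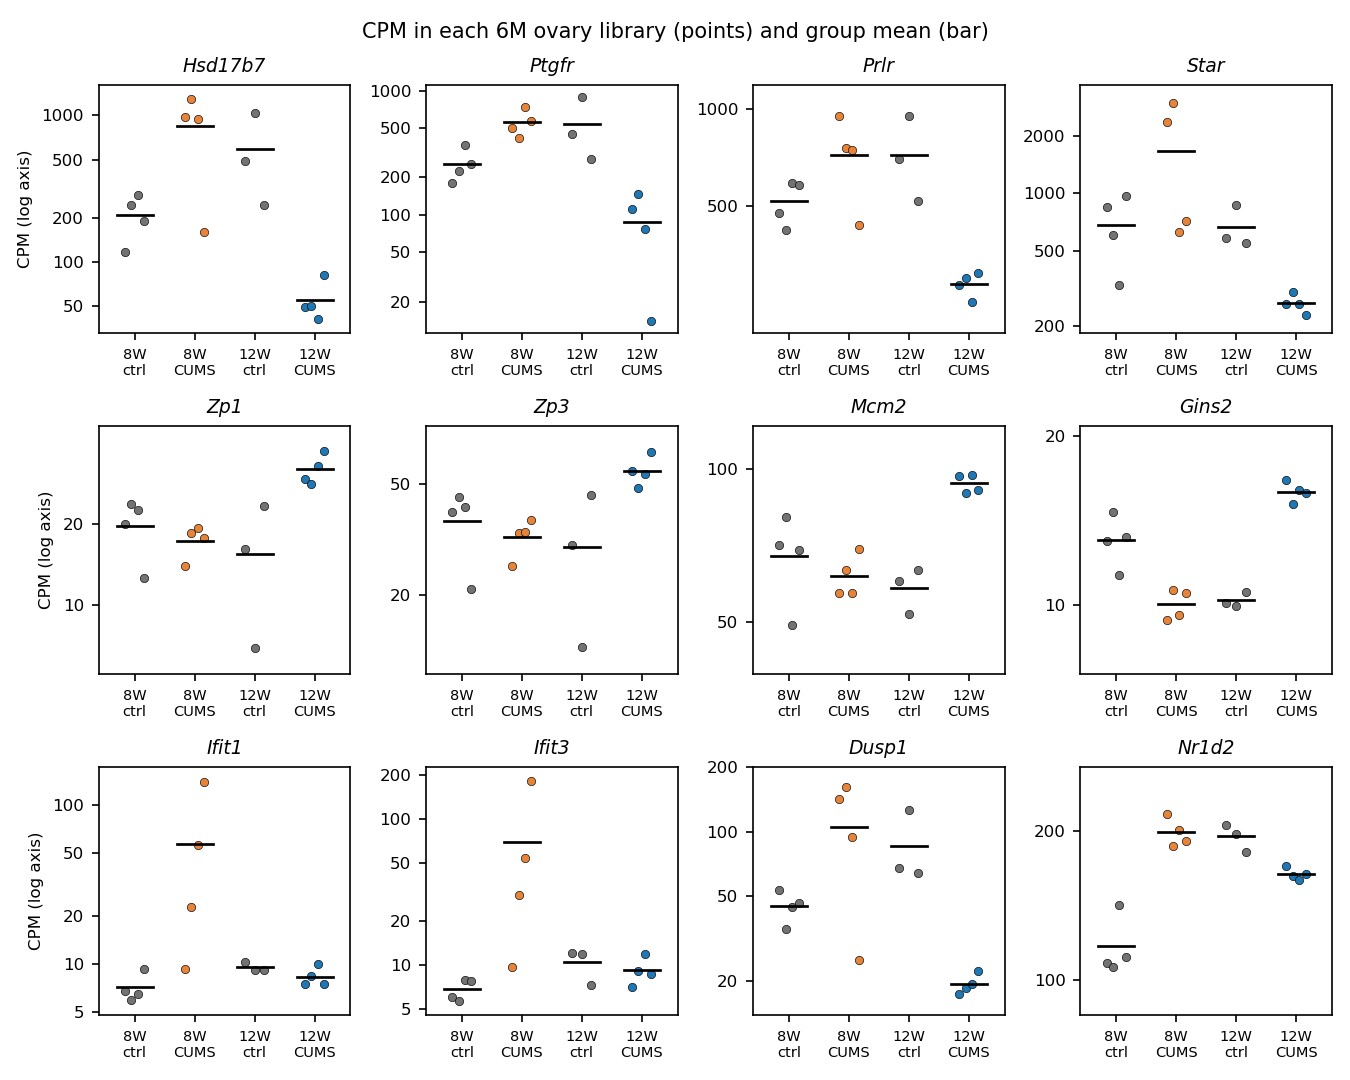
CPM on a log axis for 12 genes in the 15 libraries of the 6M ovary, by group, with a bar at the group mean. In 12-week CUMS (blue) the luteal genes lie below and Zp1, Mcm2 and Gins2 above the 12-week controls, and in 8-week CUMS (orange) Ifit1 and Ifit3 spread over more than a factor of 10.

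Genes of the oocyte and of dividing cells went the other way. All 28 oocyte genes had duration differences above 0, with a median of 0.81, and 4 of 28 passed: Zp1, Zp3, Zar1 and Ybx2. After 12 weeks 12 of 28 were called higher in stressed ovaries, and after 8 weeks none, with a median of -0.14. The summed oocyte level was 727 to 1013 CPM in 12-week CUMS, above the 12-week controls at 494, 270 and 683 CPM and above all 8 libraries of the 8-week groups, at 346 to 666 CPM. Zp1 and Zp3 code for glycoproteins of the zona pellucida, the coat of the oocyte. Zp1 was at 20.1, 23.8, 22.7 and 12.6 CPM in 8-week controls, 13.9, 18.5, 19.3 and 17.7 CPM in 8-week CUMS, 16.2, 6.91 and 23.4 CPM in 12-week controls, and 29.4, 28.3, 33.1 and 37.4 CPM in 12-week CUMS. Stressed ovaries were above every control after 12 weeks and lay within the range of controls after 8. The duration difference of Zp1 was 1.24 ± 0.34 (adjusted p = 0.0266, edgeR), and it was lost in the fit of the 4 groups alone and without 12-week control 1 or 2, 12-week CUMS 4 or 8-week control 2. Zp3 was at 1.10 ± 0.35 (adjusted p = 0.0498), and Zar1, a maternal-effect gene, at 1.26 ± 0.36 (adjusted p = 0.0291). Gdf9, the oocyte growth factor that acts on granulosa cells, was at 1.07 ± 0.35 and did not pass (adjusted p = 0.0531). The sign was shared with 2 months, where all 28 oocyte duration differences were above 0, with a median of 0.24 and none called. At that age the summed oocyte level was 794 to 968 CPM in 8-week CUMS and 592 to 795 CPM in 8-week controls. In the 12-week groups of 2 months it was 876 to 1020 CPM in CUMS and 539 to 744 CPM in controls.

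The oocyte count moved with single libraries of all 4 groups. Without 12-week control 3, which had the highest oocyte level of these controls, 18 of 28 genes passed, and without 12-week control 2, with the lowest, none did. None passed without 12-week control 1, 12-week CUMS 4 or 8-week control 2 either, and 9 did without 8-week control 4. The count was 1 without 8-week control 1, 12-week CUMS 1 or 3, or 8-week CUMS 1 or 3, and 2 without 8-week control 3 or 8-week CUMS 2 or 4.

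In follicle somatic cells, the summed level of 17 granulosa genes was 10100 to 12800 CPM in 12-week CUMS and 5430 to 8620 CPM in the other 11 libraries. Of all genes tested 4.06% had a higher duration difference. Of 17 granulosa genes 1 did, Amh, the hormone of small growing follicles, at 1.21 ± 0.38 (adjusted p = 0.0442, edgeR). It passed in 5 of 20 alternatives and of the single libraries only without 12-week control 3, 8-week control 3 or 8-week CUMS 4. Its receptor Amhr2 gave a firmer value. Amhr2 was at 144, 151, 126 and 148 CPM in 8-week controls, 114, 99.1, 103 and 136 CPM in 8-week CUMS, 100, 92.7 and 127 CPM in 12-week controls, and 167, 178, 174 and 180 CPM in 12-week CUMS. The 4 libraries of 12-week CUMS were the highest of the 15. Its duration difference was 1.05 ± 0.19 (adjusted p = 0.00365, edgeR), and it passed in all 20 alternatives. Inha, the inhibin alpha subunit, was higher after 12 weeks of stress by 0.83 (adjusted p = 0.0295), a call lost without any 1 library of the 2 groups other than 12-week CUMS 2 (adjusted p up to 0.108), and its duration difference of 0.69 ± 0.33 did not pass (adjusted p = 0.184). Fshr and Cyp19a1, the FSH receptor and aromatase, were at 0.37 ± 0.48 and -0.51 ± 0.77. Of 7 theca genes 1 was higher, Gli1, the transcription factor of hedgehog signalling, at 0.67 ± 0.19 (adjusted p = 0.0295). Cyp17a1, the androgen-making enzyme of theca cells, was at 649 to 833 CPM in 12-week CUMS against 77.2 to 226 CPM in 12-week controls and 59.5 to 484 CPM in the 8 other libraries. Its groups were apart after 12 weeks, and its duration difference of 2.04 ± 1.03 did not pass (adjusted p = 0.206).

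Of 30 cell cycle genes 10 had a higher duration difference and none a lower one, all 30 values were above 0, and the median was 0.52. After 12 weeks 8 were called higher. After 8 weeks 29 of 30 values were below 0 and 1, Gins2, was called lower. The genes called in the duration difference were Gins2, Mcm2, Mcm3 and Mcm5 of the replicative helicase, the transcription factor E2f1, and the mitotic genes Cdc20, Plk1, Aurka, Kif20a and Cdk1. Mcm2 was at 70.8, 80.3, 49.4 and 69.1 CPM in 8-week controls, 56.9, 63.2, 56.9 and 69.6 CPM in 8-week CUMS, 60.1, 51.8 and 63.1 CPM in 12-week controls, and 96.7, 89.6, 97.2 and 90.8 CPM in 12-week CUMS. Stressed ovaries were above every other library after 12 weeks and among the controls after 8. The duration difference was 0.81 ± 0.15 for Mcm2 (adjusted p = 0.00449, edgeR), 0.98 ± 0.21 for Mcm5 (adjusted p = 0.00897) and 0.92 ± 0.22 for Cdc20, the activator of the anaphase complex (adjusted p = 0.0136). These 3 and Gins2 passed in all 20 alternatives. The list held 6 genes past the threshold without any 1 of 12-week control 1 or 2, 12-week CUMS 1, 8-week control 1 or 2 or 8-week CUMS 3, and 16 without 8-week control 3. The median stress effect of the list was 0.27 after 12 weeks and -0.22 after 8.

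Of 20 interferon-responsive genes 9 were called higher in stressed ovaries after 8 weeks and none after 12. Type I interferons induce this set through factors that bind the interferon-stimulated response element (ISRE), a pair of GAAA repeats. The 250 bases before the start of 3 list members follow, to show this element at 3 genes called higher after 8 weeks of stress, 5′ to 3′ on the strand of the gene, from RefSeq (GRCm38.p6). Capitals mark matches to GAAA, any 2 bases and GAAA again, on either strand, overlapping matches included. Ifit1 is shown from chr19:34640639-34640888 (plus strand), Ifit3 from chr19:34583279-34583528 (plus strand) and Isg15 from chr4:156200819-156201068 (minus strand).
Ifit1: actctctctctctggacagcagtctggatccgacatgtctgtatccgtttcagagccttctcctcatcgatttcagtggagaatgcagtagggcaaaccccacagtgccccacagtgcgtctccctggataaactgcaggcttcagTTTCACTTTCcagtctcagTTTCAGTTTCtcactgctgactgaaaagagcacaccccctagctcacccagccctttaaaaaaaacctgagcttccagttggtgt
Ifit3: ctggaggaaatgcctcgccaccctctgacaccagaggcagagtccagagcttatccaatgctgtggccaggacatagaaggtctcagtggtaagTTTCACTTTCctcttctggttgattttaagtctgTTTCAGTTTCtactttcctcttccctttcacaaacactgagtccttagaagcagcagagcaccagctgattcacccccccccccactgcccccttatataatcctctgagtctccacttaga
Isg15: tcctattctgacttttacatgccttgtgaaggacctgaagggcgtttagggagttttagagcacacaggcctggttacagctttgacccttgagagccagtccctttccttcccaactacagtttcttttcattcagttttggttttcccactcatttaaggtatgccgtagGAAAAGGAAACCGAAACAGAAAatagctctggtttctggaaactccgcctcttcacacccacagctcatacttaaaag
Ifit1 and Ifit3 hold 2 matches each, starting 104 and 85 bases and 156 and 122 bases before the gene start, and Isg15 holds 3 overlapping matches at 78, 72 and 66 bases. Of the 20 list members 14 were in the promoter table, and 8 of them (57.1%) held a match, against 978 of 32851 promoter windows of this length (2.98%). The list was made of genes known to respond to interferon, so this share describes the list and is no result about these ovaries. Ifi44 and Oasl2 of the list held no match. Other motifs and lists were scanned and are not shown. A match is a description of these letters and not a measured binding site.

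All 20 interferon genes had duration differences below 0, with a median of -2.02, and 5 passed: Ifit3, Ifit1, Mx1, Ifi44 and Oasl2, all of them antiviral effectors or their relatives. After 8 weeks all 20 values were above 0 with a median of 1.79, and 9 were called higher. After 12 weeks none was called and the median was -0.10. The 9 calls of 8 weeks did not all hold when single libraries were left out. Without 8-week CUMS 4 only 5 of all genes tested were called higher after 8 weeks. Without 8-week control 1, 2 and 4 this number was 3, 8 and 5. Ifit1 was at 6.78, 5.94, 6.49 and 9.25 CPM in 8-week controls and at 9.28, 22.7, 56.3 and 140 CPM in 8-week CUMS. It was at 10.3, 9.08 and 9.13 CPM in 12-week controls and at 7.42, 8.36, 9.93 and 7.42 CPM in 12-week CUMS. The stressed libraries of 8 weeks were all above their controls but differed among themselves, and the lowest barely cleared the highest control. The other 11 libraries lay close together. The duration difference of Ifit1 was -3.20 ± 0.91 (adjusted p = 0.0303, edgeR), and that of Ifit3 was -3.51 ± 0.98 (adjusted p = 0.0275). Isg15, a ubiquitin-like protein, was at -2.48 ± 0.91 and did not pass (adjusted p = 0.0844). How reads shared between close copies of Ifit3 were counted is not given in the sources used here.

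The summed level of the 20 interferon genes was 658, 1121, 1427 and 2995 CPM in 8-week CUMS 1 to 4, and 556 to 758 CPM in the other 11 libraries. The level was above all other groups in 3 of 4 stressed libraries and highest in CUMS 4. Without 8-week CUMS 4 none of the 20 passed for the duration difference, and the value of Ifit3 was -2.40. None passed without 12-week control 1 or 2 or 8-week control 2 either. The count was 17 without 8-week CUMS 1, the library with the lowest response, 11 without 8-week CUMS 2, 1 and 2 without 12-week CUMS 1 and 4, and 2 without 8-week control 1. With DESeq2 15 passed. The summed level of 16 macrophage genes was 1110 to 1270 CPM in 8-week CUMS and 1150 to 1580 CPM in 8-week controls, and 12 of the 16 stress effects were below 0. That of 12 lymphocyte genes was 20.9 to 32.5 CPM in 8-week CUMS and 23.0 to 29.4 CPM in 8-week controls. The part of immune cells in the interferon values was not tested.

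Immediate early genes are induced within minutes by growth factors, hormones or handling. After 12 weeks 13 of 26 were called lower in stressed ovaries and none higher, against 6.26% of all genes tested called lower. Their duration difference was lower for 4 of 26, Klf6, Dusp1, Fosl2 and Klf4, with a median of -0.91. The count was 1 without 12-week control 2, 2 without 8-week control 2 and 7 without 8-week control 3. For the stress effect after 8 weeks none of the 26 was called, and the median was -0.13. The controls differed too: 25 of 26 genes were higher in 12-week than in 8-week controls, with a median of 0.45 and 1 called. Between the stressed groups the median was -0.44. At 2 months the summed level of the 26 genes was 1290 to 1680 CPM in 8-week CUMS and 1940 to 2450 CPM in 8-week controls, without overlap. In the 12-week groups of 2 months it was 1210 to 2110 CPM in CUMS and 1460 to 2500 CPM in controls, which overlapped. Dusp1, a phosphatase that turns off MAP kinases, was at 53.6, 34.9, 44.1 and 46.5 CPM in 8-week controls, 142, 162, 94.1 and 24.9 CPM in 8-week CUMS, 67.4, 126 and 64.0 CPM in 12-week controls, and 17.3, 18.6, 19.3 and 22.2 CPM in 12-week CUMS. The stressed libraries were all below the controls after 12 weeks, and after 8 weeks 3 were above and CUMS 4 below them. Its duration difference was -3.39 ± 0.81 (adjusted p = 0.0141, edgeR), lost without 12-week control 2 (adjusted p = 0.0506). Klf6, a zinc finger factor, was at -0.83 ± 0.17 and passed in all 20 alternatives.

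Heat shock genes had duration differences below 0 in all 16 cases, and 4 passed. These were the chaperones Hspd1, at -0.59 ± 0.15, Hsp90aa1, at -1.01 ± 0.31, and Dnaja1, at -0.69 ± 0.21, and the co-chaperone Chordc1, at -0.70 ± 0.20. After 8 weeks 4 of 16 were called higher and all 16 values were above 0, and after 12 weeks none was called and the median was -0.03. Hsp90aa1 was at 231, 326, 575 and 643 CPM in 8-week CUMS and at 202 to 269 CPM in 8-week controls, so CUMS 2, 3 and 4 were above every control and CUMS 1 was among them. In the 12-week groups it was at 230 to 311 CPM. The count was 0 without 12-week control 2, 1 without 12-week control 1 or 3, 12-week CUMS 2 or 3, 8-week control 1 or 2 or 8-week CUMS 3, and 2 without 8-week control 4 or 8-week CUMS 4. Without 8-week control 1 only 3 of all genes tested were called higher after 8 weeks, so the 4 heat shock calls of 8 weeks did not all hold. At 2 months 15 of 16 heat shock duration differences were also below 0, with a median of -0.23 and none called. No heat shock gene differed between the ages at the threshold. Of 19 genes of the unfolded protein response 2 were lower, Ddit3 at -0.63 ± 0.19 and Canx at -0.39 ± 0.11. None passed without 12-week control 1 or 2 or 8-week CUMS 3, and 1 did without 12-week CUMS 3 or 4 or 8-week control 1, 2 or 4.

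Targets of the glucocorticoid receptor, through which stress hormones act, went in both directions. Of 21 genes 3 were lower, Dusp1, Sgk1 and Fkbp5, and 2 were higher, the metallothioneins Mt1 and Mt2, with a median of -0.05. The count of 5 became 0 without 12-week control 2, 1 without 12-week control 1 or 8-week CUMS 3, 3 without 8-week CUMS 4, and 2 without any 1 of 12-week CUMS 1, 2 or 4 or 8-week control 1, 2 or 4. Sgk1, a kinase that promotes sodium uptake and cell survival, was at 388, 310, 438 and 508 CPM in 8-week controls, 530, 433, 651 and 386 CPM in 8-week CUMS, 484, 795 and 289 CPM in 12-week controls, and 114, 109, 96.9 and 47.8 CPM in 12-week CUMS. The groups overlapped after 8 weeks and were apart after 12. Its duration difference was -2.79 ± 0.77 (adjusted p = 0.0272, edgeR), lost without 12-week control 1 or 2, 12-week CUMS 4, 8-week control 2 or 8-week CUMS 3. Mt1 and Mt2, which bind zinc, were at 0.88 ± 0.25 and 1.01 ± 0.30 (adjusted p = 0.0314 and 0.0379). For Nr3c1, the receptor itself, the value was -0.27 ± 0.34 (adjusted p = 0.67).

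The clock list held 2 lower genes among 18, Nr1d2 and Per3, against 4.67% of all genes tested. The count was 1 without any 1 of 12-week control 1, 2 or 3, 12-week CUMS 1, 2 or 3, 8-week control 1, 2 or 4 or 8-week CUMS 1 or 3. The controls of the 2 durations differed for 9 of 18, 7 higher and 2 lower after 12 weeks. Nr1d2 (chr14:18204054-18239127), a nuclear receptor that represses clock genes, was at 108, 106, 142 and 111 CPM in 8-week controls and at 216, 187, 201 and 190 CPM in 8-week CUMS. It was at 206, 197 and 182 CPM in 12-week controls and at 170, 162, 159 and 163 CPM in 12-week CUMS. The stressed libraries were above every control after 8 weeks and below every control after 12, and the 12-week controls lay in about the range of 8-week CUMS. The stress effect was called after 8 weeks only. The duration difference was -1.02 ± 0.17 (adjusted p = 0.00302, edgeR) and passed in all 20 alternatives. Its 8-week stress effect of 0.76 was the only named 8-week call that passed in all 13 alternatives run for it. The hour of collection and the duration cannot be told apart here.

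Growth factor pathways of the follicle had members in both directions. Of 34 genes of the TGF-beta family, which includes the signals between oocyte and granulosa cells, 4 were higher (Amh, Amhr2, Smad6 and Tgfb3) and 4 lower (Tgfb1, Tgfbr1, Smad1 and Acvr2a), with a median of -0.05. The count of 8 was 2 without 12-week control 1 or 2, 3 without 8-week control 2, 4 without 8-week CUMS 1 or 3, and 5 without 12-week CUMS 2, 3 or 4 or 8-week control 1. Smad6, an inhibitor of BMP signalling, was at 0.93 ± 0.23 (adjusted p = 0.0154, edgeR), and passed in all 20 alternatives. Tgfb1, the ligand, was at -0.82 ± 0.22 (adjusted p = 0.0255), and was lost without 12-week control 1 or 2 or 8-week control 2. Among genes of IGF and insulin signalling, the binding protein Igfbp3 was lower at -1.50 ± 0.36 and the transcription factor Foxo3, which holds back the activation of resting follicles, at -0.29 ± 0.08, while Igfbp6 was higher at 0.62 ± 0.17. Igfbp3 lost the call without 12-week control 1 or 2, and Foxo3 without 12-week control 1 or 3 or 8-week control 2. Igfbp6 lost it without 12-week control 1 or 2, 12-week CUMS 3, 8-week control 1 or 4 or 8-week CUMS 3.

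**Figure D3:**
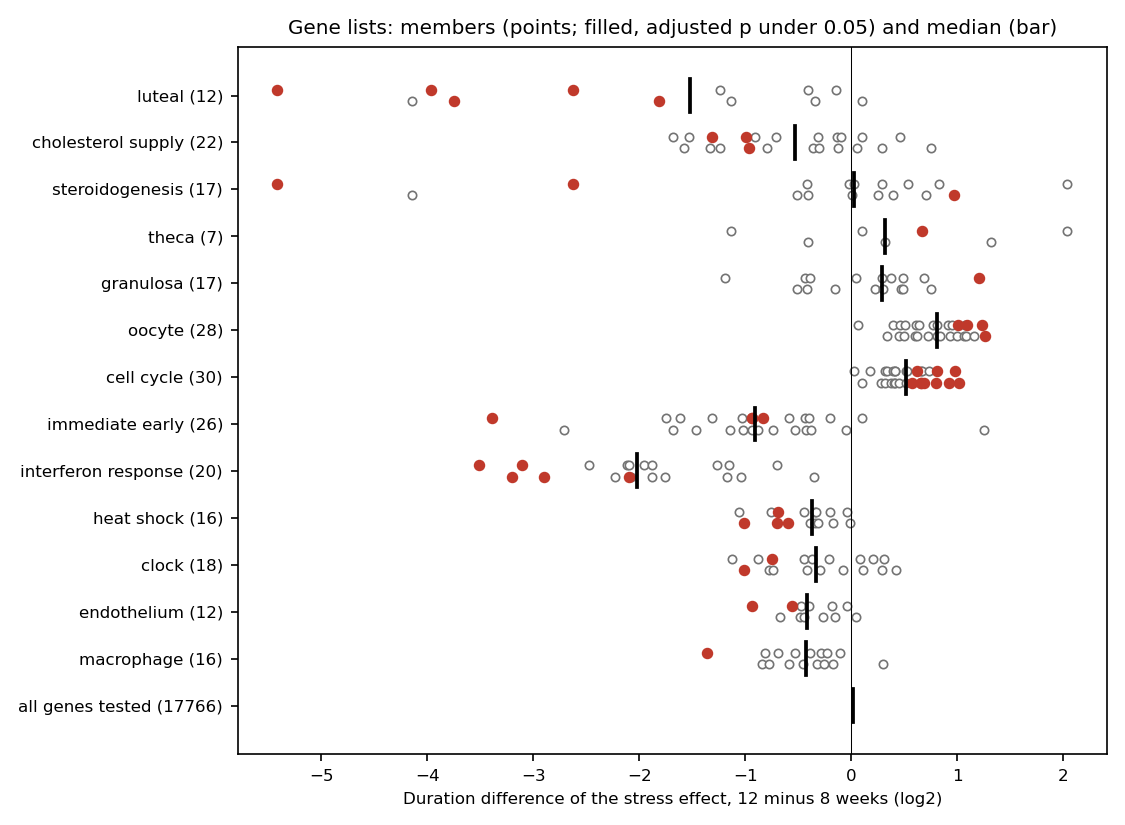
Duration differences (log2) of the members of 13 gene lists, 1 point a gene, filled red at an adjusted p under 0.05 (edgeR over all genes), with a bar at the median and the number tested in brackets. The luteal and interferon medians lie at -1.52 and -2.02, the oocyte and cell cycle medians at 0.81 and 0.52, and that of all 17766 genes at 0.02.

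Predicted genes, pseudogenes and mitochondrial genes were left out of the next ranking. Among the other genes past the threshold with a mean of at least 1 log2 CPM, the lowest duration differences were larger in size than the highest. The 12 lowest of these ran from -6.31 for Tnfrsf9 to -3.96 for Sfrp4, and the 12 highest from 1.34 for Palm3 to 1.91 for Aldh1l2. Since these genes were chosen by this value, their sizes are a description. Tnfrsf9, a co-stimulatory receptor of the TNF receptor family, was at 3.73, 9.75, 16.2 and 4.81 CPM in 8-week controls, 15.4, 30.9, 68.1 and 38.4 CPM in 8-week CUMS, 15.9, 36.9 and 8.83 CPM in 12-week controls, and 1.504, 1.495, 1.03 and 0.564 CPM in 12-week CUMS. Stressed libraries were below every control after 12 weeks, and 3 of 4 were above every control after 8. Sema3d, a secreted guidance protein, was at 24.2 to 150 CPM in 8-week controls, 38.1 to 256 CPM in 8-week CUMS, 119 to 344 CPM in 12-week controls and 4.64 to 31.5 CPM in 12-week CUMS. Both passed in all 20 alternatives. The lipase Lipg, the adhesion protein Nrcam and the lipid droplet protein Plin4 were at -4.16 ± 1.10, -4.03 ± 1.01 and -4.40 ± 1.17, and all 3 lost the call without 12-week control 2. Nrcam lost it also without 8-week CUMS 3. The same control set the call of Pdzrn4, at -4.62 ± 1.15, and with 12-week control 1 that of Baiap3, at -4.23 ± 1.14. Ssu2, Ces2a and Apol6 were at -6.27 ± 1.89, -6.06 ± 1.68 and -4.69 ± 1.32, and passed in 7, 14 and 14 of 20 alternatives. Ces2a has close relatives in a gene family, and how reads shared among them were counted is not given in the sources used here.

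Among the highest, some genes differed after 8 weeks and others after 12. Wnt6, a secreted Wnt ligand, was at 105, 92.2, 48.6 and 112 CPM in 8-week controls and at 27.8, 32.6, 34.3 and 26.9 CPM in 8-week CUMS, without overlap. In the 12-week groups it was at 34.3, 35.3 and 45.4 CPM in controls and at 44.0, 47.7, 44.8 and 52.5 CPM in CUMS, which overlapped. Plin1, which coats lipid droplets, was at 28.2 to 36.0 CPM in 8-week controls, 22.0 to 27.3 CPM in 8-week CUMS, 16.7 to 26.7 CPM in 12-week controls and 48.1 to 68.9 CPM in 12-week CUMS. Its groups were apart in opposite directions at the 2 durations. The duration differences were 1.86 ± 0.45 for Wnt6 and 1.64 ± 0.38 for Plin1 (adjusted p = 0.0142 and 0.012, edgeR), and both passed in all 20 alternatives, as did Actn3, Col22a1, Mamstr and Palm3. Fabp3, a fatty acid carrier, was at 1.64 ± 0.52 and passed in 4 of 20, and Aldh1l2, of mitochondrial folate metabolism, at 1.91 ± 0.59 in 6 of 20. The summed level of 10 adipocyte markers, with Plin1 and Plin4 among them, was 167 to 233 CPM in 12-week CUMS and 307 to 1082 CPM in 12-week controls. This sum was 315 to 757 CPM in 8-week CUMS and 335 to 441 CPM in 8-week controls. Its part in the result was not tested.

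Vessel and immune markers had few calls, against 4.67% of all genes tested called lower in the duration difference. Of 12 endothelial genes 2 were lower, Pecam1 at -0.93 ± 0.21 and the angiopoietin receptor Tek at -0.56 ± 0.14, and 11 of 12 values were below 0. The count was 1 without 12-week control 2 and 4 without 8-week CUMS 4. Of 16 macrophage genes 1 was lower, Ptprc at -1.36 ± 0.31, and 15 values were below 0, with a median of -0.42. The summed macrophage level was 962 to 1430 CPM in 12-week CUMS and 1520 to 2180 CPM in 12-week controls, without overlap. It was 1110 to 1270 CPM in 8-week CUMS and 1150 to 1580 CPM in 8-week controls. All 16 genes were higher in 12-week than in 8-week controls, with a median of 0.29 (log2).

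At 2 months the same duration difference was called for 89 genes (0.501%), 11 higher (0.0619%) and 78 lower (0.439%). This count was not stable: it was 0 in the fit of the 4 groups alone and with a replicate block (edgeR; 2214 genes at an unadjusted p under 0.05 with the block). It was 0 to 7 without any 1 of 8-week control 1 to 4, 8-week CUMS 1 or 3, 12-week control 3 or 4 or 12-week CUMS 1, 3 or 4 at 2 months. It was 478 and 449 without 8-week CUMS 2 and 4, 167 and 160 without 12-week control 1 and 2, and 136 without 12-week CUMS 2. The difference between the ages was tested with all 31 ovary libraries in 1 fit, and 106 genes (0.597%) passed, 60 higher and 46 lower at 6 months. This count ranged from 2 without 6M 8-week control 1 to 353 without 6M 8-week control 3. Of the 30 cell cycle genes 3 passed, all higher at 6 months, and all 30 values were above 0. Mcm2 had duration differences of 0.81 ± 0.15 at 6 months and -0.42 ± 0.15 at 2 months, a difference of 1.23 ± 0.21 (adjusted p = 0.0154, edgeR). At 2 months it was at 68.8 to 77.6 CPM in 8-week controls, 82.7 to 104 CPM in 8-week CUMS, 68.0 to 73.6 CPM in 12-week controls and 60.1 to 69.6 CPM in 12-week CUMS. All stressed libraries were above all controls after 8 weeks at 2 months, and after 12 weeks at 6 months. Mthfd1, of folate metabolism, the nucleotidase Entpd6 and the secreted protein Scube1 differed in the same direction, by 0.94 ± 0.16, 0.85 ± 0.15 and 1.58 ± 0.28. Nr1d2 differed by -1.36 ± 0.24 (adjusted p = 0.0161). These 5 genes passed in 34 of 35 alternatives each, and all lost the call without 6M 8-week control 1.

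The interferon list differed between the ages in 7 of 20 genes, with a median difference of -3.80, all 20 values below 0 and the 7 called genes lower. At 2 months the duration difference had a median of 1.88, all 20 values were above 0 and none was called. Ifit3 was at 10.5, 10.9, 18.4 and 12.0 CPM in 2-month 8-week controls, 6.90, 5.38, 5.44 and 5.41 CPM in 8-week CUMS, 5.62, 5.41, 6.87 and 6.89 CPM in 12-week controls, and 114, 16.3, 10.1 and 6.54 CPM in 12-week CUMS. The highest 2-month values lay in 12-week CUMS 1, as the highest 6-month values lay in 8-week CUMS 4. The difference between ages for Ifit3 was -7.24 ± 1.37 (adjusted p = 0.0246, edgeR), and it was -5.56 without 2-month 12-week CUMS 1 (adjusted p = 0.0244) and -6.15 without 6-month 8-week CUMS 4 (adjusted p = 0.0239). It lost the call without 6M 12-week control 2, 6M 12-week CUMS 1 or 6M 8-week control 1 or 2. For the luteal and oocyte lists no gene differed between the ages at the threshold, with medians of -1.86 and 0.56. The 2-month libraries varied in markers of other tissue: the 7 pituitary hormone genes summed to 1.09 to 43.3 CPM in 2-month 8-week controls and 1523 CPM in 1 library of the 2-month 12-week controls. The 3 oviduct secretory genes summed to 5.65 to 1930 CPM and the 11 oviduct ciliated genes to 40 to 396 CPM in 2-month 8-week CUMS, and 4.89 to 26.3 and 29.2 to 48.4 CPM in their controls. Of the pituitary genes 4 of 5 tested, and of the ciliated genes 4 of 11, were called lower in the 2-month duration difference. The part of this in the age comparison was not tested.

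**Figure D4:**
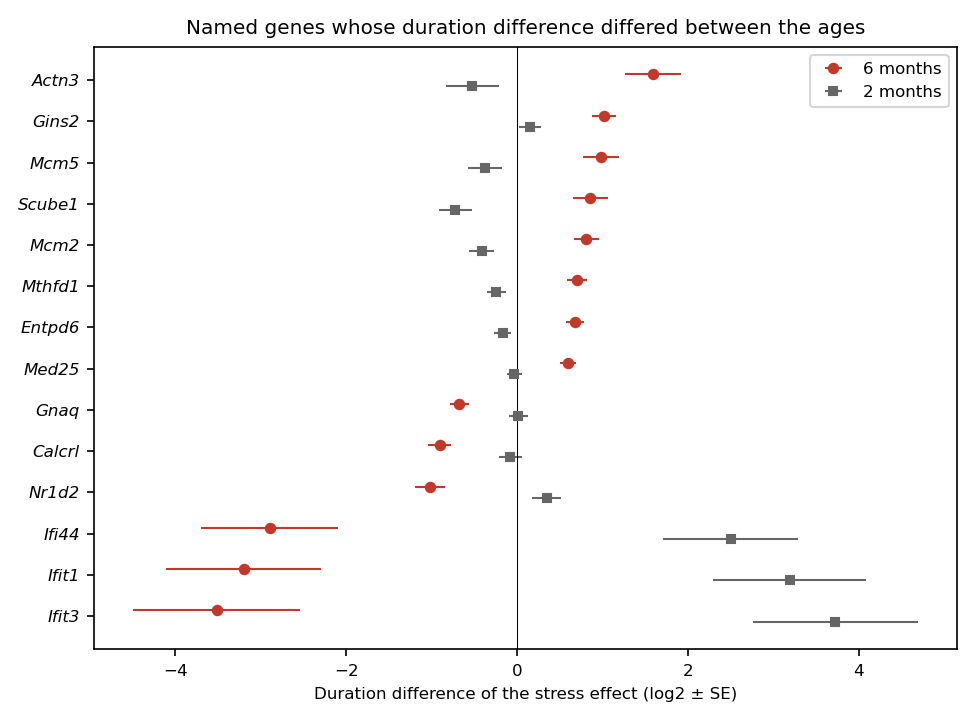
Duration difference (log2, with bars of 1 SE) at 6 months (red circles) and 2 months (grey squares) for the 14 named genes that differed between the ages at an adjusted p under 0.05 (edgeR). Ifit1, Ifit3 and Ifi44 lie below -2 at 6 months and above 2 at 2 months, and Mcm2 and Mcm5 above 0 at 6 months and below 0 at 2.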

How the data were processed

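Total RNA of 63 ovary and pituitary samples was sequenced; per the labels' protocols chloroform extraction preceded an NEBNext Ultra II library kit. The aligner, the counter and the strand setting were not given in the sources used here. Ovary files are tables in which the authors deposited raw read counts per gene and, per the file headers, FPKM values (counts scaled by gene length and depth). The deposited FPKM values were used in no test. Gene positions are on GRCm38: 34344 of 34745 identifiers were in GENCODE M21, 80.88% with the same ends. Only the ovary table was used, with every sample column assigned to a labelled sample.

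The 31 ovary libraries (8 groups of 3 or 4) were fitted together, so that groups share 1 estimate of the spread. Genes were kept with filterByExpr (17766), scaled with TMM and tested by quasi-likelihood in edgeR 4.0.16 (R 4.3.3), with Benjamini-Hochberg adjustment over all genes tested and a threshold of 0.05. The biological coefficient of variation was 0.207. The SE is the log2 value divided by the square root of F. Levels are TMM-scaled CPM computed from the deposited counts. The code was tested on simulated data. None of 21 replicate pairs held the same counts, and chi-square per degree of freedom was at least 9.83 between any pair.

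Genes were named by rule: 22 core ovary genes, the 12 highest and 12 lowest duration differences among called genes averaging at least 1 log2 CPM, the 4 smallest p in each list with 3 or more called members, the 6 smallest p among genes with opposite stress effects and the 5 smallest p for the age difference. Predicted genes (Gm, Rik and similar names), pseudogenes and mitochondrial genes were left out of the highest, lowest, opposite and age sets. The comparison, the gene lists and this rule were chosen with earlier results of these data known. Called members of short lists, Cish, Cpxm2 and Per2 were named after their values were seen. Promoter windows were taken from a RefSeq table of GRCm38.p6 by symbol. Alternatives were DESeq2 1.42.0, its size factors, no count filter, a replicate block, the groups of the comparison alone and leaving out each library. 1 gene is not reported here.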

Additional observations from a re-analysis of the deposited data

Results flagged for a closer look

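Of the groups of 4 libraries examined for the named genes, 13 had 1 library whose gap to the nearest other library exceeded Dixon's critical value. Chance gives about 1 in 20 groups, which is 11.2 here. The 12-week controls, with 3 libraries, were not examined. 8-week control 3 stood apart for Klf4 (22.51 CPM), Mcm5 (38.07 CPM), Mthfd1 (63.66 CPM) and Nr1d2 (141.8 CPM), and 8-week control 1 for Afmid (12.54 CPM). 8-week CUMS 1 stood apart for Actn3 (2.387 CPM), Mamstr (3.139 CPM) and Zar1 (12.11 CPM), and 8-week CUMS 3 for Gnaq (192.5 CPM). 12-week CUMS 4 stood apart for Actn3 (4.426 CPM), Ces2a (1.215 CPM) and Nrcam (3.384 CPM), and 12-week CUMS 2 for Ndufb8 (63.58 CPM).

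For 14 named genes the duration difference itself differed between 6 and 2 months (edgeR, adjusted p between 0.0154 and 0.0442). On the log2 scale, 6 months minus 2 months, it was higher for Actn3 (2.117), Scube1 (1.577), Mcm5 (1.354), Mcm2 (1.226), Mthfd1 (0.942), Gins2 (0.8648), Entpd6 (0.8466) and Med25 (0.6308). It was lower for Ifit3 (-7.236), Ifit1 (-6.39), Ifi44 (-5.395), Nr1d2 (-1.364), Calcrl (-0.8259) and Gnaq (-0.6867). None of the 14 passed in all 35 alternatives, and all 14 kept their direction in each. Without 2-month 12-week CUMS 1 the value of Ifi44 was -4.329 (adjusted p = 0.0507, edgeR).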

How the results depend on the processing

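The count of the 6M duration difference was 2333 with DESeq2 and 2637 with its 4 groups alone, and 561 to 1856 when 1 library was left out. For the 12-week stress effect the range without 1 library was 550 to 2266. The 8-week stress effect counted 598 with DESeq2, 84 without the count filter, 99 with its own groups, and 4 to 336 without 1 library. The control comparison counted 1388 with DESeq2, 434 with its own groups, and 219 to 1162 without 1 library. The 2-month duration difference counted 401 with DESeq2, 45 without the filter, 0 with its own groups (edgeR), and 0 to 478 without 1 library. The age difference counted 644 with DESeq2, 66 without the filter, and 2 to 353 without 1 library. Its own groups are all 8, so that fit was not repeated. The cause of these shifts was not tested.

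With the replicate number as a block, the 6M duration difference counted 1520 genes, the age difference 49, and the 2-month duration difference 0 (edgeR; 2214 at an unadjusted p under 0.05). Of 7 same-numbered pairs of control and stressed 6M libraries 1 had a correlation of deviations over 0.1 (range -0.134 to 0.125), so the numbers were not taken as pairs.

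Of 75 named genes called in the duration difference, 25 passed in all 20 alternatives and all 75 kept their direction. For the stress effects 14 of 47 passed in all 12 alternatives after 12 weeks, and 1 of 17 in all 13 after 8. Of genes not called, 4 changed sign: Esr1 (0.006712 with its own groups, and -0.1182 to 0.205 without 1 library), Hsd3b1 (-0.1077 to 0.2606), Nr3c1 (-0.422 to 0.01919) and Inhba (-0.3337 to 0.09287).

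The 12-week controls had 3 libraries, and genes with few counts, such as Ces2a and Pdzrn4, are also limited by depth.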

Other observations

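Of 20 respiratory chain genes of the nucleus 3 had a higher duration difference, Uqcrc1 at 0.42 ± 0.12, Cyc1 at 0.53 ± 0.16 and Ndufb8 at 0.56 ± 0.17, and 18 of 20 values were above 0. Of 13 genes of the mitochondrial genome 2 were lower, mt-Nd2 at -0.88 ± 0.28 and mt-Co1 at -0.51 ± 0.15, and none of the 13 values was above 0. Medians were 0.28 and -0.61. The controls differed too: 19 of 20 nuclear genes were lower in 12-week than in 8-week controls, with a median of -0.248 and 4 called. Between the stressed groups the nuclear median was 0.0143. For the mitochondrial genes the medians were 0.305 between controls and -0.265 between stressed groups. The nuclear count was 0 without any 1 of 12-week control 1, 12-week CUMS 1, 3 or 4, 8-week control 1 or 4 or 8-week CUMS 3 or 4, and 1 without 8-week CUMS 1. The mitochondrial count was 6 without 8-week control 3 or 8-week CUMS 4, 1 without 12-week CUMS 1, 3 or 4 or 8-week CUMS 3, and 0 without 12-week control 1 or 2, 12-week CUMS 2, 8-week control 1, 2 or 4 or 8-week CUMS 1. All 20 ribosomal protein genes had values above 0, with a median of 0.31, and 1 passed. Their median was -0.279 between 12-week and 8-week controls, with 5 called lower, and -0.0221 between the stressed groups.

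Single members of other lists were called. Rgs5, a marker of pericytes, was at -1.61 ± 0.27 (adjusted p = 0.00285, edgeR), the cytokine Il1b at -3.48 ± 1.03 (adjusted p = 0.0351), and Runx2, a factor of the ovulating follicle, at -3.36 ± 0.99 (adjusted p = 0.0357). No gene passed for the duration difference among 22 of extracellular matrix, 19 of antioxidant defence, 12 of lymphocytes or 10 of the surface epithelium.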
